A study of Mus musculus with 12 samples.

Results

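The 37 genes described here carry out homologous recombination, the Fanconi pathway, end joining, damage checkpoint signalling, lesion bypass and damage recognition for nucleotide excision repair. They were followed by RNA-seq across 4 groups of newborn C57/Bl6 mouse lungs. The members were taken by gene symbol from the deposited table of raw counts, and all 37 were among its 23478 genes. The list was drawn up with earlier results of these data known. All 37 passed the filter on low counts that left 15761 genes for testing. On day 0 pups were injected with aurothioglucose (ATG, a gold-containing inhibitor of thioredoxin reductase) at 25 mg/kg, or with saline. They then spent 72 h either in hyperoxia, here more than 95% oxygen, or in room air. The 4 groups, of 3 samples each, were ATG with hyperoxia, saline with hyperoxia, ATG with room air, and saline with room air. All animals were of 1 strain, and RNA came from lungs freed of lavage fluid, so each library mixes all cell types left in the organ. The labels do not say which samples shared an animal, a litter or a day, so p-values measure the spread between these samples, which may be technical.

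Homologous recombination copies an intact sister chromatid to repair a broken one. It needs resected ends, a protein filament whose assembly depends on BRCA2, and enzymes that resolve the joined molecules, and it works mainly in cells that are copying or have copied their DNA. The Fanconi pathway opens crosslinked DNA at stalled forks and feeds it into the same machinery, while end joining ligates broken ends in any phase of the cell cycle. The kinases ATM and ATR sense the damage and pass it to CHEK2 and CHEK1, and many of the recombination and Fanconi genes are known to be transcribed through E2F factors when cells enter S phase. High oxygen is known to damage DNA in lung cells and to stop their division.

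Promoter sequence was available for 27 of the 37 genes from RefSeq (GRCm38.p6, 250 bases before the annotated start to 50 after it), and 10 genes had no window (Rad54b, Xrcc2, Rad50, Nbn, Exo1, Fancd2, Prkdc, H2afx, Ddb2 and Xpc). Stretches from 7 of these windows are shown, since they hold or lack the short motifs that cell cycle promoters often carry. They belong to 6 genes whose transcripts fell in hyperoxia by the tests given further on (Brca2, Bard1, Chek2, Mdc1, Fancg and Brip1) and to Xrcc6, which did not pass. All read 5′ to 3′ in the direction of transcription. Capitals mark 3 kinds of motif, each searched on both strands. The E2F core was read as TTCCCGC, which on the other strand appears as its reverse complement. A second form of that core, TTGGCGC, was searched as well and is found in Brca1 among the members. The other motifs were the CCAAT box, named by its letters, and the cell cycle homology region (CHR), whose letters are TTTGAA. The stretch of Brca2 lies at chr5:150522421-150522620, plus strand, that of Bard1 at chr1:71102973-71103222, minus strand, and that of Chek2 at chr5:110839783-110839982, plus strand. Mdc1 is shown at chr17:35841348-35841497, plus strand, Fancg at chr4:43010302-43010451, minus strand, Brip1 at chr11:86201194-86201343, minus strand, and Xrcc6 at chr15:82016219-82016368, plus strand.
Brca2: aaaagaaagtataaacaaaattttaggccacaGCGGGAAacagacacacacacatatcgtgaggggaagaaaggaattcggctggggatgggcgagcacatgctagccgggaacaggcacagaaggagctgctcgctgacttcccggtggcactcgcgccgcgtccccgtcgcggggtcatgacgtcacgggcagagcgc
Bard1: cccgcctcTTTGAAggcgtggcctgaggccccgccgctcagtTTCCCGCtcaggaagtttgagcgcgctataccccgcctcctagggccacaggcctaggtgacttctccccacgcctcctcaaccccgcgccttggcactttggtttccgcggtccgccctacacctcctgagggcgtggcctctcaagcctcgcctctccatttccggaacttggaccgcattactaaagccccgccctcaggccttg
Chek2: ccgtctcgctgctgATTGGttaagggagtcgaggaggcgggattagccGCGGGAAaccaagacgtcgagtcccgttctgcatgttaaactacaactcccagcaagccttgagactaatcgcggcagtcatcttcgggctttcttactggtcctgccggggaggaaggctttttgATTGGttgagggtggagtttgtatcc
Mdc1: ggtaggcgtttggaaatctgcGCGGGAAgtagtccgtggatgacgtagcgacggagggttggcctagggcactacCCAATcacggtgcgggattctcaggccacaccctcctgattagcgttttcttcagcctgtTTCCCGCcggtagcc
Fancg: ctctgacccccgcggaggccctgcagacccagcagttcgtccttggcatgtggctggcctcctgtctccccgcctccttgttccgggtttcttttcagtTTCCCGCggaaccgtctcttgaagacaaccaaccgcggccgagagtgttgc
Brip1: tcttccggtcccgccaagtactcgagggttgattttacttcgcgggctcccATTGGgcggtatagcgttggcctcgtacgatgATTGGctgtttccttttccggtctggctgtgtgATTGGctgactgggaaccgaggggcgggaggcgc
Xrcc6: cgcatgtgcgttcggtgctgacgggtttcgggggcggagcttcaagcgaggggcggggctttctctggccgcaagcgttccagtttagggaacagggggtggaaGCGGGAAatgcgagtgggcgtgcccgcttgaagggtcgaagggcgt

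Bard1 carries a CHR and an E2F core at the upstream end of its window, and Mdc1 carries an E2F core on each strand with a CCAAT box between them. Chek2 has 1 E2F core between its CCAAT boxes, and Brip1 has CCAAT boxes but no E2F core. Brca2, Fancg and Xrcc6 show 1 E2F core each. In either form, an E2F core was found in 10 of the 18 genes with a window whose transcripts fell in hyperoxia (Brca1, Brca2, Bard1, Rad51ap1, Fancb, Fanci, Fancg, Chek1, Chek2 and Mdc1) and in 2 of the 8 that did not pass (Xrcc6 and Atm). Among all 27025 genes with promoter windows the share was 7.79%, and among the 11573 of them that were tested it was 13.3%. A CCAAT box stood in 10 of the 18 and in 6 of the 8, against 42.0% of the tested genes. The CHR stood in 2 of the 18 (Bard1 and Eme1) and in 0 of the 8, against 14.6% of the tested genes. No matches of different motifs overlapped each other, and these matches describe letters in a window and were not tested as sites.

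**Figure D1:**
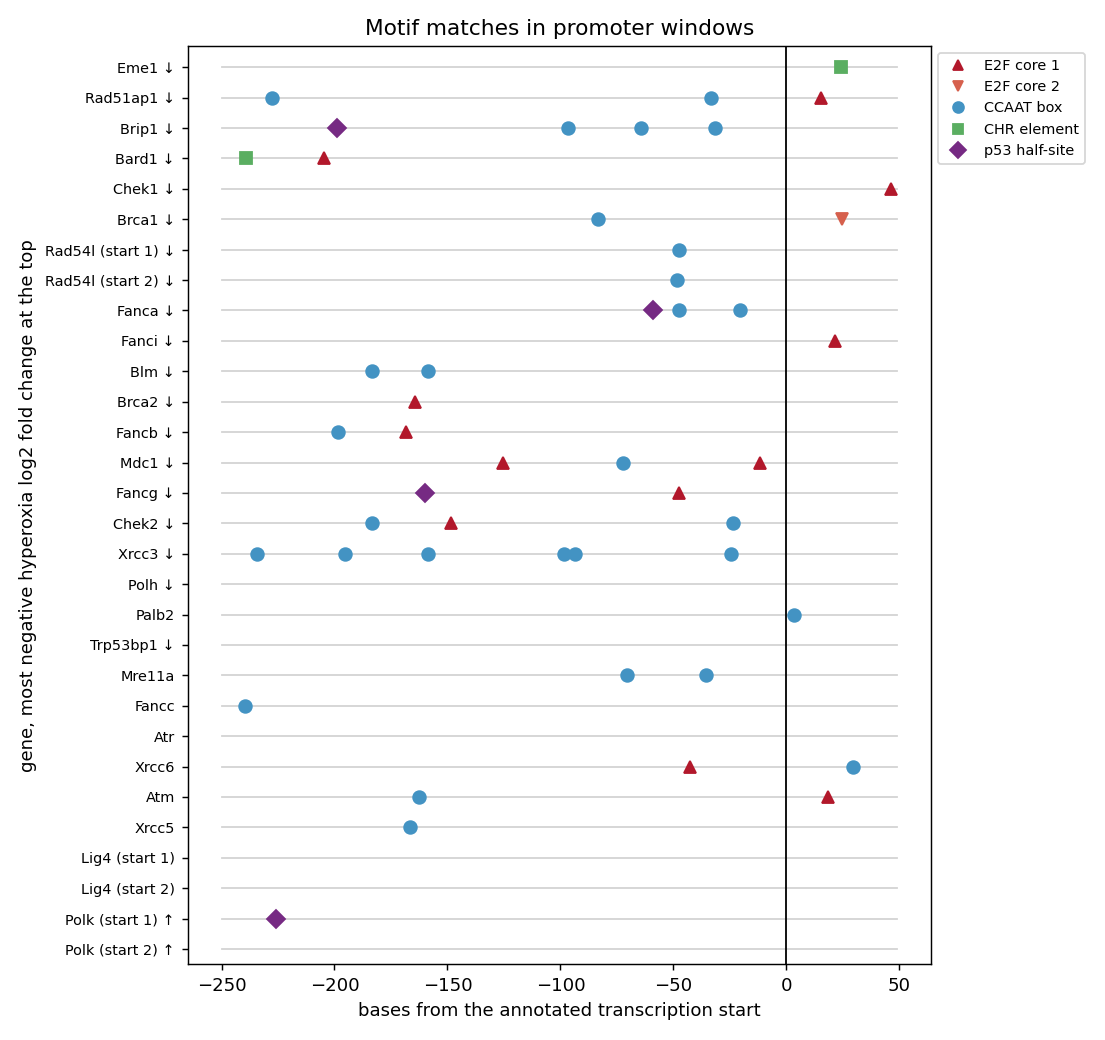
Position of each motif match, in bases from the annotated transcription start, in the promoter windows of the 27 members that have one, ordered by their hyperoxia log2 fold change with the most negative at the top (down arrow, lower in hyperoxia; up arrow, higher). E2F cores lie in 10 of the 18 genes that fell and in 2 of the 8 that did not pass.

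Polk, the 1 gene of the 37 that rose, was searched for the p53 decamer (the half-site of the p53 response element), whose match is in capitals in the stretch before the downstream one of its 2 annotated starts at chr13:96519338-96519437, minus strand. The window of the other start holds no match. The same decamer was found in 3 of the 18 genes that fell (Brip1, Fanca and Fancg), in 0 of the 8 that did not pass and in 8.63% of the tested genes.
Polk: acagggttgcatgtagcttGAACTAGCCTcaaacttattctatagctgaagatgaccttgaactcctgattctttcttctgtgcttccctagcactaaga

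Hyperoxia was compared with room air after each injection to ask what high oxygen did to these transcripts. Averaged over the injections, most recombination, Fanconi and checkpoint genes were lower in hyperoxia, the end joining genes did not pass the test, and Polk was higher. Among ATG-injected pups 17 of the 37 genes fell and 1 rose, where 6.25% of all tested genes were called lower and 5.41% higher. Among saline-injected pups 12 fell and 1 rose, against 4.50% and 4.70% of all tested genes (9.19% in either direction). Averaged over the injections 23 fell, 1 rose and 13 did not pass, against 11.3% of all genes lower and 11.0% higher. Falls and rises are given as log2 units with the standard error (SE). Calls are edgeR's quasi-likelihood test with the Benjamini-Hochberg adjusted p under 0.05 over all 15761 genes. The median log2 fold change of the 37 genes was -0.71 in ATG, -0.52 in saline and -0.61 in the average, while over all tested genes it was 0.00079 in ATG, -0.0018 in saline and -0.0028 in the average. In bulk lung, fewer cells that express a gene and less of its RNA per cell cannot be told apart.

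**Figure D2:**
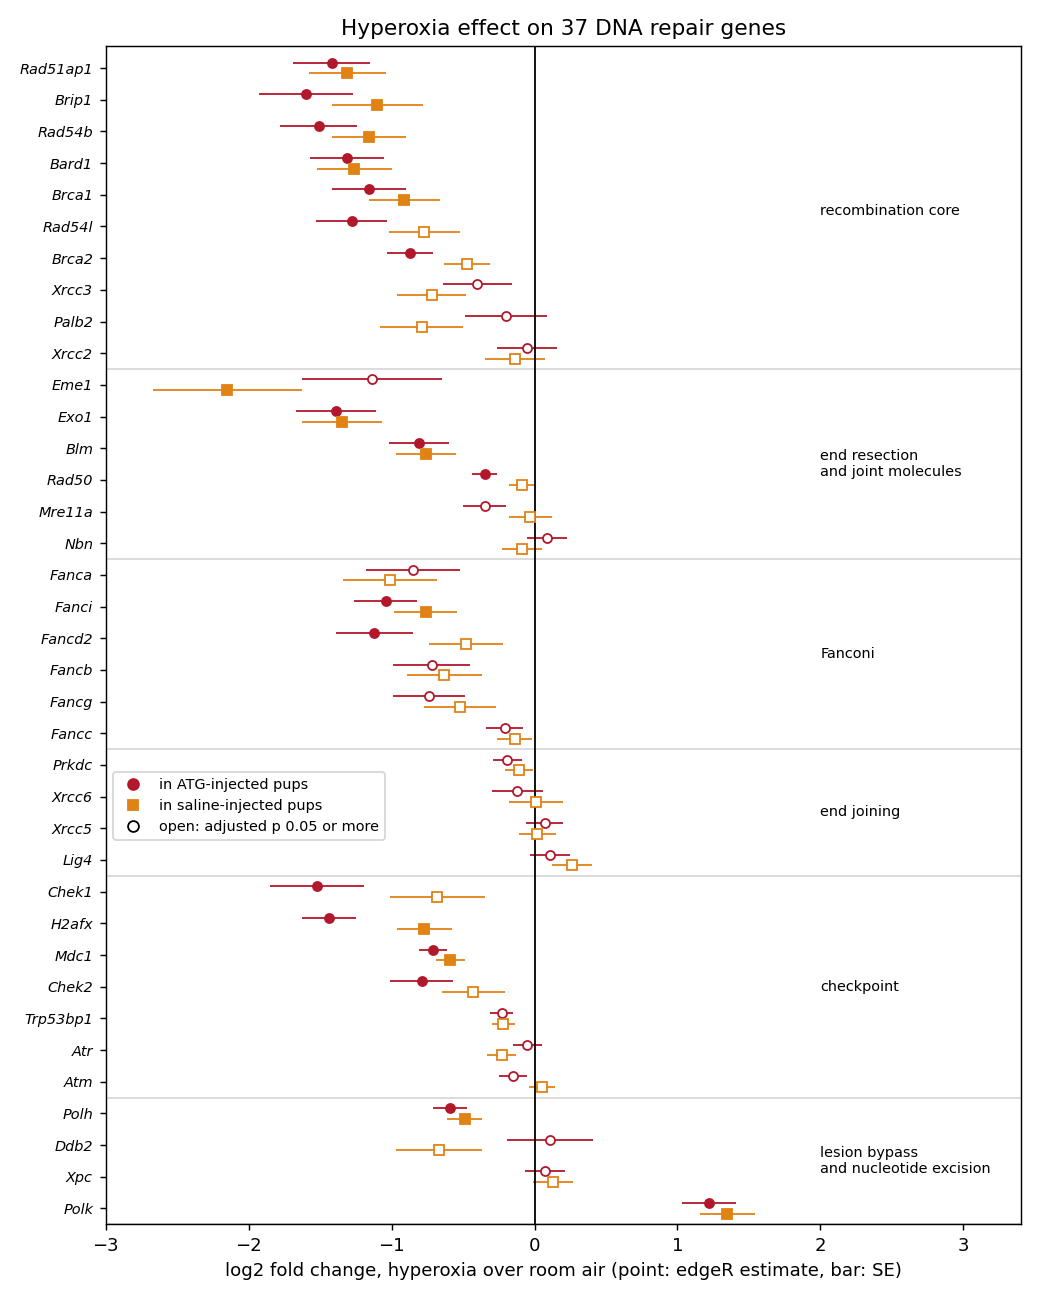
Log2 fold change of hyperoxia over room air for each of the 37 genes by role, in ATG-injected pups (circles) and saline-injected pups (squares), with bars for the standard error of the edgeR estimate. Filled points have an adjusted p under 0.05: 17 genes lower in ATG, 12 lower in saline, and Polk higher in both.

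Both injections gave a fall for 11 genes (Brca1, Bard1, Brip1, Rad51ap1, Rad54b, Exo1, Blm, Fanci, Mdc1, H2afx and Polh). Brca2, Rad54l, Rad50, Fancd2, Chek1 and Chek2 passed after ATG and not after saline, and Eme1 passed after saline and not after ATG. None of these 7 differed between the injections by the interaction test (adjusted p = 1.00 for each). Another 5 passed in the average alone (Xrcc3, Fanca, Fancb, Fancg and Trp53bp1). When the 6 hyperoxia libraries were set against the 6 room-air libraries, the levels of 13 genes were lower without overlap, against 5.61% of all tested genes, and 1 was higher (Polk), against 5.41%. Within ATG 21 of the 37 were lower without overlap and 1 was higher, against 13.9% and 13.7% of all tested genes, and within saline 26 were lower and 2 higher, against 14.9% and 14.6%.

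Of the 10 genes in the recombination core, the largest group, 8 fell in the average (80.0%), with a median log2 fold change of -1.03. The share that fell was 83.3% among the Fanconi genes and 11.3% among all tested genes. Brca1 and Bard1 encode the BRCA1 and BARD1 partners of a ubiquitin ligase that steers breaks toward recombination. Levels are CPM, counts scaled to a common library size. Brca1 (chr11:101488761-101551955, minus strand) had 14.9, 11.9 and 20.6 CPM in ATG hyperoxia lungs and 19.1, 22.1 and 18.6 in saline hyperoxia lungs, against 38.9, 22.8 and 44.7 in ATG room-air lungs and 28.5, 33.9 and 49.7 in saline room-air lungs. Each hyperoxia library lay below each room-air library, and the lowest room-air library, ATG 2, came within 1 CPM of the highest hyperoxia library. The log2 fold change was -1.16 (SE 0.26, adjusted p = 0.00811) in ATG and -0.91 (SE 0.25, adjusted p = 0.0366) in saline. Bard1 had 7.12, 5.33 and 6.45 CPM in ATG hyperoxia lungs and 5.92, 9.75 and 8.52 in saline hyperoxia lungs, against 16.9, 9.08 and 20.8 in ATG room-air lungs and 20.3, 17.4 and 20.2 in saline room-air lungs. Its groups were apart within each injection, although the lowest ATG room-air library lay below the highest saline hyperoxia library. Bard1 fell by 1.31 (SE 0.26, adjusted p = 0.00472) in ATG and by 1.26 (SE 0.26, adjusted p = 0.00768) in saline, to 41.1% of the room-air level in the average.

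Brip1, a helicase bound to BRCA1, and Rad51ap1, which promotes strand invasion, had among the largest falls of the core. Brip1 had 9.32, 4.99 and 15.4 CPM in ATG hyperoxia lungs and 12.2, 13.6 and 14.6 in saline hyperoxia lungs, against 35.8, 17.7 and 37 in ATG room-air lungs and 30.1, 23.7 and 33 in saline room-air lungs. ATG hyperoxia 2 was the lowest library and the groups did not overlap. Its log2 fold change was -1.60 (SE 0.33, adjusted p = 0.00524) in ATG and -1.10 (SE 0.32, adjusted p = 0.0456) in saline. Rad51ap1 (chr6:126923415-126939621, minus strand) had 2.76, 1.91 and 4.24 CPM in ATG hyperoxia lungs and 2.37, 3.35 and 3.29 in saline hyperoxia lungs, against 8.15, 7.8 and 7.91 in ATG room-air lungs and 6.91, 8 and 7.35 in saline room-air lungs. The room-air libraries spanned a narrow range and every hyperoxia library was well under it. Rad51ap1 fell by 1.42 (SE 0.27, adjusted p = 0.00344) in ATG and by 1.31 (SE 0.27, adjusted p = 0.00802) in saline, to 38.9% of room air in the average.

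Rad54l and Rad54b encode related DNA translocases that act during strand exchange. Rad54b had 2.37, 2.02 and 2.32 CPM in ATG hyperoxia lungs and 2.52, 4.05 and 2.98 in saline hyperoxia lungs, against 6.64, 6.39 and 6.17 in ATG room-air lungs and 5, 7.76 and 8.54 in saline room-air lungs. All 6 hyperoxia libraries were below all 6 room-air libraries, and the ATG hyperoxia libraries were also below the saline hyperoxia libraries. It fell by 1.51 (SE 0.27, adjusted p = 0.00202) in ATG and by 1.16 (SE 0.26, adjusted p = 0.013) in saline. Rad54l had 3.53, 2.35 and 4.53 CPM in ATG hyperoxia lungs and 4.27, 4.17 and 3.71 in saline hyperoxia lungs, against 7.89, 9.15 and 8.32 in ATG room-air lungs and 6.37, 5.96 and 8.48 in saline room-air lungs. Its groups did not overlap either, and it fell by 1.28 (SE 0.25, adjusted p = 0.0038) in ATG, while in saline its log2 fold change of -0.77 (SE 0.25, adjusted p = 0.0678) did not pass.

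Brca2, whose protein BRCA1 and PALB2 help bring to breaks, had 36.4, 22.8 and 29.8 CPM in ATG hyperoxia lungs and 36.1, 32.3 and 31.5 in saline hyperoxia lungs, against 61.6, 43.3 and 58.1 in ATG room-air lungs and 42.2, 48.1 and 48.3 in saline room-air lungs. The hyperoxia libraries were all below the room-air libraries, but the saline groups lay closer together than the ATG groups. Brca2 fell by 0.87 (SE 0.16, adjusted p = 0.00257) in ATG, its saline log2 fold change was -0.47 (SE 0.16, adjusted p = 0.082), and the average was -0.67 (SE 0.11, adjusted p = 0.000604). Xrcc3 and Xrcc2 act together with the recombination core at breaks and forks. Xrcc3 averaged 10.5 ± 2.31 CPM in ATG hyperoxia lungs and 10.3 ± 1.85 in saline hyperoxia lungs, against 13.8 ± 4.74 in ATG room-air lungs and 17 ± 2.29 in saline room-air lungs (SD, n = 3 each), and it passed only in the average of the injections (-0.56, SE 0.17, adjusted p = 0.0285). Xrcc2 averaged 7.35 CPM in ATG hyperoxia lungs and 7.31 in saline hyperoxia lungs, against 7.59 in ATG room-air lungs and 8.05 in saline room-air lungs, with a log2 fold change of -0.09 (SE 0.15, adjusted p = 0.706) in the average. Palb2, which joins BRCA1 to BRCA2, averaged 3.42 ± 1.19 CPM in ATG hyperoxia lungs and 3.41 ± 0.724 in saline hyperoxia lungs, against 3.93 ± 0.421 in ATG room-air lungs and 5.91 ± 0.198 in saline room-air lungs, and its log2 fold change of -0.50 (SE 0.20, adjusted p = 0.0969) did not pass.

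**Figure D3:**
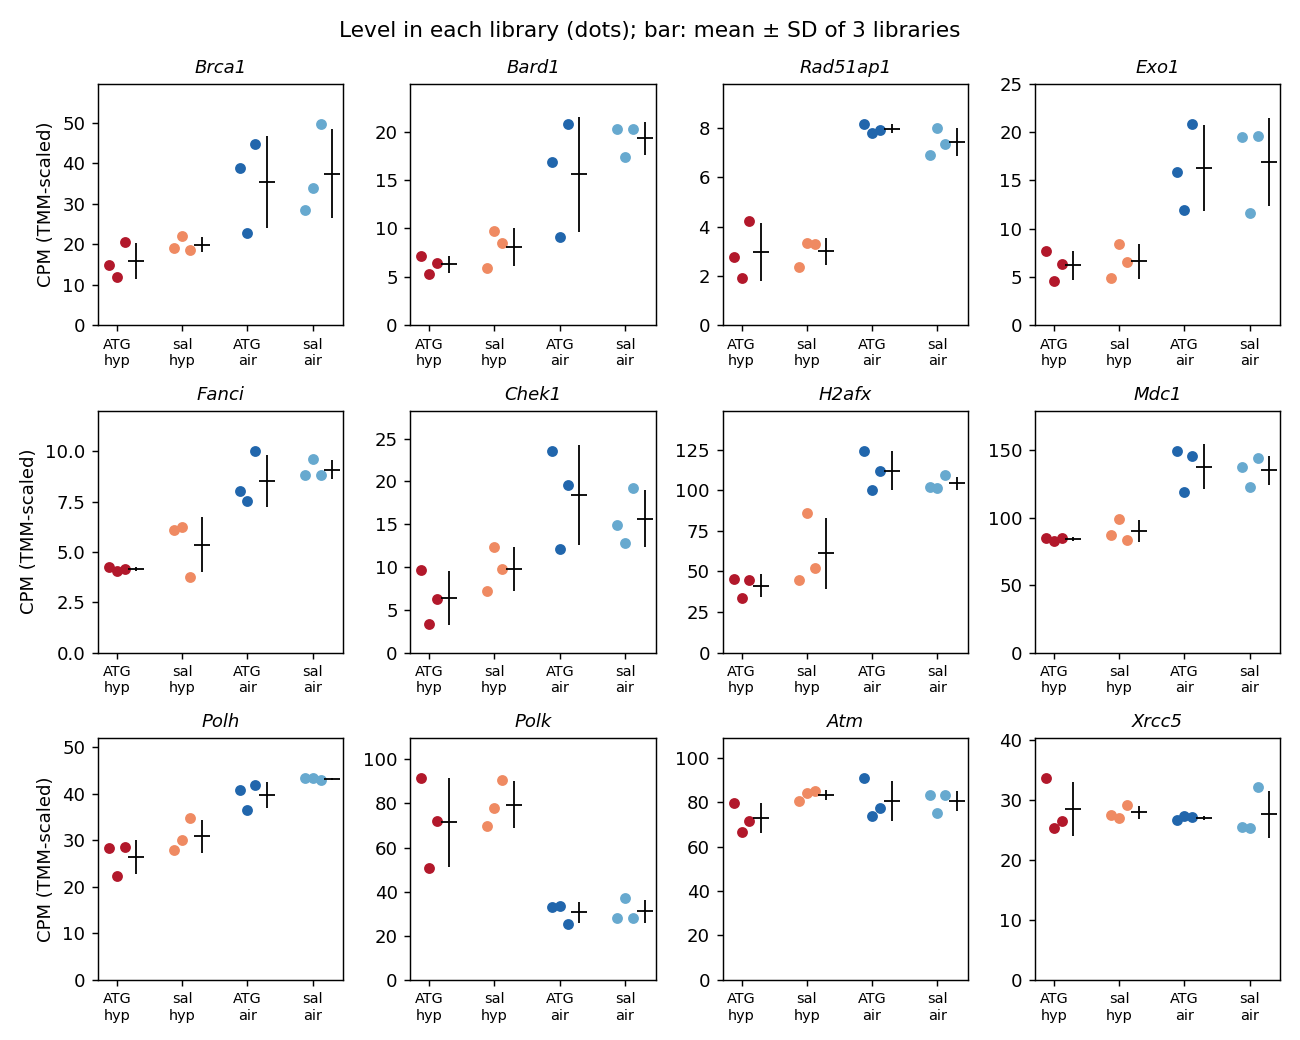
Level of 12 of the genes in each library (dots, TMM-scaled CPM) with the mean ± SD of each group of 3 (cross and bar), groups from left to right ATG hyperoxia, saline hyperoxia, ATG room air and saline room air. Brca1, Rad51ap1, Exo1, Fanci, Mdc1, H2afx and Polh were lower in every hyperoxia library than in any room-air library, Polk was higher in every one, and Atm and Xrcc5 overlapped.

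Of the 6 genes for end resection and joint molecules, 4 fell in the average, Exo1, Blm and Eme1 by more than Rad50. Exo1, the exonuclease of long-range resection (chr1:175880768-175911396, plus strand), had 7.67, 4.6 and 6.36 CPM in ATG hyperoxia lungs and 4.89, 8.46 and 6.51 in saline hyperoxia lungs, against 15.9, 12 and 20.8 in ATG room-air lungs and 19.4, 11.6 and 19.6 in saline room-air lungs. The highest hyperoxia library was below the lowest room-air library. It fell by 1.39 (SE 0.28, adjusted p = 0.00442) in ATG and by 1.35 (SE 0.28, adjusted p = 0.0073) in saline, to 38.7% of room air in the average. Blm, the Bloom helicase that dissolves joined molecules, had 11.9, 9.53 and 12.5 CPM in ATG hyperoxia lungs and 11.4, 16.8 and 12 in saline hyperoxia lungs, against 23.7, 14 and 21.9 in ATG room-air lungs and 20.3, 21.8 and 26 in saline room-air lungs. Hyperoxia and room air were apart within each injection and overlapped across them through saline hyperoxia 2 and ATG room air 2. Blm fell by 0.81 (SE 0.21, adjusted p = 0.0202) in ATG and by 0.76 (SE 0.21, adjusted p = 0.033) in saline.

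Eme1, partner of the MUS81 nuclease that cuts joint molecules, had 2.59, 1.01 and 3.2 CPM in ATG hyperoxia lungs and 0.72, 1.29 and 1.46 in saline hyperoxia lungs, against 7.3, 2.15 and 5.57 in ATG room-air lungs and 3.97, 3.72 and 7.66 in saline room-air lungs. The saline groups did not overlap and the ATG groups did, with ATG room air 2 lower than 2 of the ATG hyperoxia libraries. Its counts were small, 14 to 122 reads per library. Eme1 fell by 2.15 (SE 0.52, adjusted p = 0.0185) in saline, its log2 fold change in ATG was -1.14 (SE 0.49, adjusted p = 0.163), and the average of -1.64 (SE 0.36, adjusted p = 0.00416) was the largest fall of the 37 genes. Rad50, Mre11a and Nbn form the complex that first binds broken ends. Rad50 averaged 108 ± 14 CPM in ATG hyperoxia lungs and 127 ± 2.74 in saline hyperoxia lungs, against 138 ± 7.73 in ATG room-air lungs and 135 ± 2.89 in saline room-air lungs (SD, n = 3 each). It fell by 0.35 (SE 0.09, adjusted p = 0.0175) in ATG, had -0.09 (SE 0.09, adjusted p = 0.591) in saline, and fell by 0.22 (SE 0.06, adjusted p = 0.0187) in the average. Mre11a averaged 14.6 CPM in ATG hyperoxia lungs and 16.8 in saline hyperoxia lungs, against 18.6 in ATG room-air lungs and 17.1 in saline room-air lungs, and Nbn averaged 27.9 CPM in ATG hyperoxia lungs and 24 in saline hyperoxia lungs, against 26.3 in ATG room-air lungs and 25.5 in saline room-air lungs. Neither passed in the average, where Mre11a had -0.19 (SE 0.10, adjusted p = 0.208) and Nbn an adjusted p of 0.994.

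The Fanconi genes fell in the average in 5 of 6 cases, all but Fancc, with a group median of -0.74. Fanci and Fancd2 form the clamp that the Fanconi core complex marks with ubiquitin. Fanci had 4.25, 4.04 and 4.14 CPM in ATG hyperoxia lungs and 6.07, 6.23 and 3.77 in saline hyperoxia lungs, against 8.02, 7.54 and 10.0 in ATG room-air lungs and 8.83, 9.62 and 8.79 in saline room-air lungs. No hyperoxia library reached the lowest room-air library. Fanci fell by 1.04 (SE 0.22, adjusted p = 0.00611) in ATG and by 0.76 (SE 0.22, adjusted p = 0.0399) in saline. Fancd2 had 3.42, 2.52 and 3.89 CPM in ATG hyperoxia lungs and 4.12, 6.52 and 4.38 in saline hyperoxia lungs, against 7.17, 5.38 and 8.8 in ATG room-air lungs and 6.23, 6.52 and 8.16 in saline room-air lungs. The ATG groups were apart, while saline hyperoxia 2 reached the saline room-air range. Fancd2 fell by 1.12 (SE 0.27, adjusted p = 0.0143) in ATG, and in saline its log2 fold change was -0.48 (SE 0.26, adjusted p = 0.31).

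Fanca, Fancb, Fancg and Fancc encode parts of the core complex. Fanca had 1.38, 2.86 and 1.72 CPM in ATG hyperoxia lungs and 2.01, 2.47 and 1.95 in saline hyperoxia lungs, against 4.14, 2.62 and 3.95 in ATG room-air lungs and 4.18, 4.1 and 4.65 in saline room-air lungs. Saline groups were apart and ATG groups overlapped. Its average log2 fold change was -0.93 (SE 0.23, adjusted p = 0.0104). Fancb had 3.03, 5.44 and 3.65 CPM in ATG hyperoxia lungs and 6.17, 5.11 and 3.53 in saline hyperoxia lungs, against 7.96, 5.99 and 5.99 in ATG room-air lungs and 7.53, 8.19 and 7.28 in saline room-air lungs. Its groups were apart within each injection and met across them, and the average was -0.67 (SE 0.19, adjusted p = 0.0175). Fancg had 7.06, 3.08 and 5.32 CPM in ATG hyperoxia lungs and 5.45, 7.4 and 5.97 in saline hyperoxia lungs, against 8.88, 8.61 and 8.32 in ATG room-air lungs and 8.69, 9.06 and 9.17 in saline room-air lungs. Every hyperoxia library was below every room-air library, with an average of -0.63 (SE 0.18, adjusted p = 0.0184). Fancc averaged 34.7 CPM in ATG hyperoxia lungs and 38 in saline hyperoxia lungs, against 40.2 in ATG room-air lungs and 41.9 in saline room-air lungs, and its log2 fold change of -0.18 (SE 0.09, adjusted p = 0.174) did not pass.

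None of the 4 end joining genes passed in any of the 3 hyperoxia comparisons by edgeR, and 1 of them, Prkdc, had an unadjusted p under 0.05 in the average. By DESeq2 and by limma-voom none passed in the average either. Xrcc5 and Xrcc6 encode the Ku heterodimer that caps broken ends. Xrcc5 averaged 28.5 ± 4.48 CPM in ATG hyperoxia lungs and 27.9 ± 1.13 in saline hyperoxia lungs, against 27 ± 0.353 in ATG room-air lungs and 27.6 ± 3.91 in saline room-air lungs (SD, n = 3 each), a log2 fold change of 0.05 (SE 0.09, adjusted p = 0.774) in the average. Xrcc6 averaged 19.3 CPM in ATG hyperoxia lungs and 19.3 in saline hyperoxia lungs, against 21 in ATG room-air lungs and 19.1 in saline room-air lungs, with -0.06 (SE 0.13, adjusted p = 0.8). Prkdc, the catalytic subunit of the DNA-dependent kinase, averaged 68.9 CPM in ATG hyperoxia lungs and 70.4 in saline hyperoxia lungs, against 78.4 in ATG room-air lungs and 75.8 in saline room-air lungs (-0.15, SE 0.07, adjusted p = 0.142). Lig4, the ligase that seals the ends, averaged 25.5 CPM in ATG hyperoxia lungs and 26.9 in saline hyperoxia lungs, against 23.6 in ATG room-air lungs and 22.4 in saline room-air lungs (0.19, SE 0.10, adjusted p = 0.187). The median of the 4 in the average was -0.01, with 2 negative and 2 positive values. For the 10 members of the recombination core it was -1.03, with all 10 negative. Among the further pathway genes given below, the median was -0.05 for 12 end joining genes (10 negative). It was -0.18 for 20 recombination core genes (15 negative). That the end joining genes differed from the recombination genes was not tested.

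The apical kinases did not pass. Atm averaged 72.6 CPM in ATG hyperoxia lungs and 83.3 in saline hyperoxia lungs, against 80.6 in ATG room-air lungs and 80.4 in saline room-air lungs, a log2 fold change of -0.05 (SE 0.07, adjusted p = 0.65), and Atr averaged 52.7 CPM in ATG hyperoxia lungs and 49.5 in saline hyperoxia lungs, against 54.6 in ATG room-air lungs and 58.2 in saline room-air lungs, with -0.14 (SE 0.07, adjusted p = 0.152). The other 5 checkpoint genes fell in the average. H2afx (chr9:44334715-44336077, plus strand), the histone variant phosphorylated around breaks, had 45.6, 33.4 and 44.9 CPM in ATG hyperoxia lungs and 44.8, 86.2 and 52.3 in saline hyperoxia lungs, against 124, 100.2 and 112 in ATG room-air lungs and 102, 102 and 109 in saline room-air lungs. Saline hyperoxia 2 stood above the other hyperoxia libraries and still below every room-air library. H2afx fell by 1.44 (SE 0.19, adjusted p = 0.000378) in ATG and by 0.77 (SE 0.19, adjusted p = 0.0196) in saline, to 46.5% of room air in the average. Without saline hyperoxia 2 the saline log2 fold change was -1.09 (adjusted p = 0.000458), and it did not pass without saline hyperoxia 1 (-0.58) or without saline hyperoxia 3 (-0.67). Nor did it pass without saline room air 2 (-0.78, adjusted p = 0.051) or without saline room air 3 (-0.73, adjusted p = 0.0712).

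Mdc1, the scaffold that binds phosphorylated H2AX (chr17:35841495-35859670, plus strand), had 85.1, 82.9 and 85.2 CPM in ATG hyperoxia lungs and 87.4, 99.2 and 83.6 in saline hyperoxia lungs, against 149, 119 and 146 in ATG room-air lungs and 138, 123 and 144 in saline room-air lungs. The ATG hyperoxia libraries lay within 3 CPM of each other and no groups of opposite oxygen overlapped. Mdc1 fell by 0.71 (SE 0.10, adjusted p = 0.000457) in ATG and by 0.59 (SE 0.10, adjusted p = 0.00224) in saline, to 63.9% of room air in the average, and its adjusted p of 1.70e-05 there was the smallest among the genes that fell. Trp53bp1, which holds back resection at breaks, averaged 67.8 ± 1.82 CPM in ATG hyperoxia lungs and 71.7 ± 6.49 in saline hyperoxia lungs, against 79.7 ± 2.89 in ATG room-air lungs and 83.2 ± 2.86 in saline room-air lungs (SD, n = 3 each), a small fall of 0.22 (SE 0.06, adjusted p = 0.0111) in the average.

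Chek1, the kinase under ATR, had 9.6, 3.31 and 6.31 CPM in ATG hyperoxia lungs and 7.15, 12.3 and 9.74 in saline hyperoxia lungs, against 23.5, 12.1 and 19.6 in ATG room-air lungs and 14.9, 12.8 and 19.3 in saline room-air lungs. ATG hyperoxia 2 was the lowest library, and saline hyperoxia 2 came above ATG room air 2. Chek1 fell by 1.52 (SE 0.33, adjusted p = 0.00811) in ATG, and the saline value of -0.68 (SE 0.33, adjusted p = 0.232) did not pass. Chek2, the kinase under ATM, had 7.78, 4.65 and 7.73 CPM in ATG hyperoxia lungs and 9.16, 8.87 and 11.7 in saline hyperoxia lungs, against 11.8, 9.15 and 14 in ATG room-air lungs and 14.9, 12.3 and 12.8 in saline room-air lungs. Within each injection the groups were apart. Chek2 fell by 0.79 (SE 0.22, adjusted p = 0.0319) in ATG and had -0.43 (SE 0.22, adjusted p = 0.263) in saline.

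The 2 bypass polymerases went in opposite directions. Polk (chr13:96480687-96542579, minus strand), a polymerase that copies past bulky base adducts, had 91.4, 50.9 and 72.1 CPM in ATG hyperoxia lungs and 69.6, 78 and 90.8 in saline hyperoxia lungs, against 33.2, 33.6 and 25.2 in ATG room-air lungs and 28.1, 37.1 and 27.9 in saline room-air lungs. Even the lowest hyperoxia library, ATG 2, was above the highest room-air library. Polk rose by 1.22 (SE 0.19, adjusted p = 0.000908) in ATG and by 1.35 (SE 0.19, adjusted p = 0.000664) in saline, to 244% of room air in the average. Polh, which copies past ultraviolet lesions, averaged 26.4 ± 3.6 CPM in ATG hyperoxia lungs and 30.8 ± 3.57 in saline hyperoxia lungs, against 39.7 ± 2.83 in ATG room-air lungs and 43.2 ± 0.156 in saline room-air lungs (SD, n = 3 each), without overlap of hyperoxia and room air. It fell by 0.59 (SE 0.12, adjusted p = 0.00524) in ATG and by 0.49 (SE 0.12, adjusted p = 0.02) in saline. Ddb2 and Xpc, which recognise lesions for nucleotide excision, did not pass. Ddb2 averaged 3.41 ± 0.782 CPM in ATG hyperoxia lungs and 3.37 ± 0.246 in saline hyperoxia lungs, against 3.17 ± 0.76 in ATG room-air lungs and 5.38 ± 1.6 in saline room-air lungs, with -0.28 (SE 0.21, adjusted p = 0.381), and Xpc averaged 24.4 CPM in ATG hyperoxia lungs and 25.9 in saline hyperoxia lungs, against 23.3 in ATG room-air lungs and 23.6 in saline room-air lungs, with 0.10 (SE 0.10, adjusted p = 0.51).

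**Figure D4:**
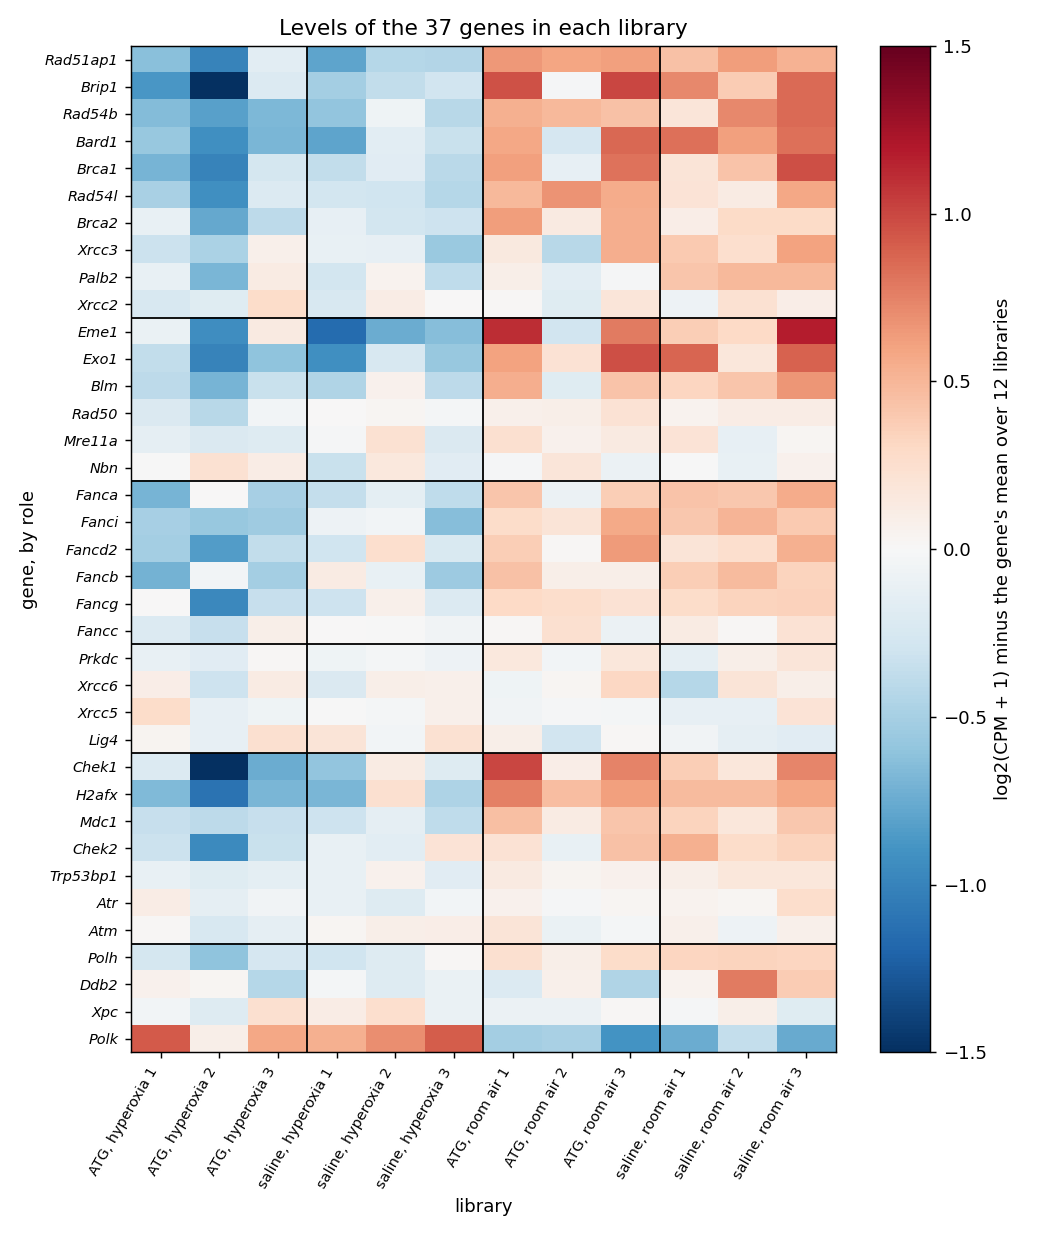
Level of each of the 37 genes in each of the 12 libraries, as log2(CPM + 1) minus the gene's mean over the libraries, genes grouped by role and libraries from left to right ATG hyperoxia, saline hyperoxia, ATG room air and saline room air. ATG hyperoxia 2 was the lowest of the 6 hyperoxia libraries for 18 of the 23 genes that fell and ATG room air 2 the lowest of the 6 room-air libraries for 16.

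The libraries held 14331749 to 20486735 counts and differed in genes of proliferation and of other tissues. The label was borne out by 10 lung epithelial and endothelial markers, which summed to 19804 to 21578 CPM in ATG hyperoxia, 19359 to 20261 in saline hyperoxia, 22588 to 29571 in ATG room air and 19550.4 to 24508 in saline room air. Summed CPM of the 23 genes that fell was 482, 400.1 and 500.1 in ATG hyperoxia and 507, 599.8 and 513 in saline hyperoxia, against 838, 672 and 846 in ATG room air and 759, 749 and 836 in saline room air. These genes were picked by their fall in the same libraries, so the gap between hyperoxia and room air in this sum was fixed in advance. Summed CPM of 15 proliferation genes, Mki67 and Top2a among them, was 630.0, 399 and 721 in ATG hyperoxia and 545, 963 and 712 in saline hyperoxia, against 2315, 1368 and 2522 in ATG room air and 1664, 1806 and 2480.2 in saline room air. ATG hyperoxia 2 was lowest and saline hyperoxia 2 highest of the hyperoxia libraries in both sums, and ATG room air 2 was the lowest room-air library in both. In the average all 15 proliferation genes fell (median log2 fold change -1.55), and all 12 genes of a list of p53 targets rose (median 1.82), summing to 2112 to 3885 CPM in ATG hyperoxia and 2342 to 3769 in saline hyperoxia, against 863 to 901 in ATG room air and 826 to 854 in saline room air. The part of proliferation in the falls, and of p53 targets in the rise of Polk, was not tested.

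Thymocytes, dividing cells that rearrange their antigen receptor genes, are known to express recombination and checkpoint genes. Their 10 markers summed to 10.7, 6.9 and 15.6 CPM in ATG hyperoxia and 10.8, 91.4 and 39.1 in saline hyperoxia, against 14.3 to 23.1 in ATG room air and 13.3 to 20.2 in saline room air. In saline hyperoxia 2 and 3 Rag1, which cuts antigen receptor genes, was at 39.2 and 15 CPM, while Ptcra was under 1 CPM in every library. Cardiomyocyte markers summed to 7056 CPM in the library ATG hyperoxia 2 and 3195 CPM in the library saline hyperoxia 2, with 429 to 990 CPM elsewhere. Skeletal muscle markers summed to 376 CPM in saline hyperoxia 1 and to 22.1 to 63.6 CPM elsewhere. Neutrophil and myeloid precursor markers summed to 194 to 223 CPM in ATG hyperoxia and 64.1 to 231 CPM in saline hyperoxia, against 96.9 to 188 CPM in ATG room air and 88.7 to 128 CPM in saline room air. Erythroid markers summed to 182 to 729 CPM in ATG hyperoxia and 208 to 326 CPM in saline hyperoxia. In room air they summed to 304 to 568 CPM after ATG and 279 to 303 CPM after saline. Of these 10 markers Hbb-bt and Hba-a1 had under 3 counts in every library, and Tfrc was called higher in hyperoxia after each injection. The part of these other cell types in the results was examined only by leaving out the heart-, muscle- and thymocyte-rich libraries. Without the 2 heart-rich libraries 21 of the genes fell and Polk rose in the average, with Rad50 and Xrcc3 lost. Without the 3 heart- and muscle-rich libraries saline hyperoxia kept replicate 3 alone. Without the 2 thymocyte-rich libraries, saline hyperoxia 2 and 3, it kept the muscle-rich replicate 1 alone. Calls from these fits are not given, since they cannot separate the part of muscle or thymocyte RNA from the lack of replicates.

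**Figure D5:**
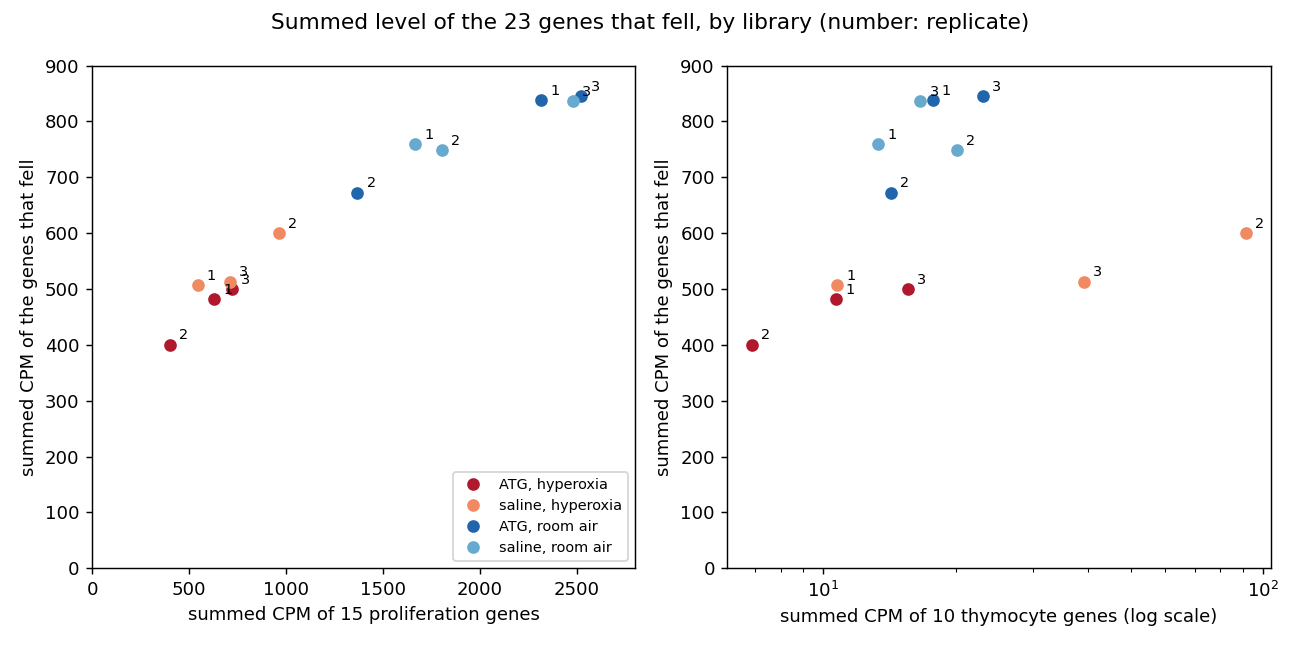
Summed CPM of the 23 genes that fell in each of the 12 libraries (numbers give the replicate) against the summed CPM of 15 proliferation genes (left) and of 10 thymocyte genes (right, log scale). The hyperoxia libraries lie at 400 to 600 CPM and the room-air libraries at 672 to 846 CPM. This gap follows from how the 23 genes were picked, by their fall in these same libraries. The library with the most thymocyte RNA, saline hyperoxia 2, is the highest of the hyperoxia libraries, and also the highest of them in proliferation genes. Saline hyperoxia 3, next in thymocyte RNA, lies at 513 CPM, beside 507 CPM for saline hyperoxia 1.

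The saline count of 12 lower genes depended on single libraries, since it became 4 without saline hyperoxia 1, 6 without saline hyperoxia 3, 5 without saline room air 2 and 4 without saline room air 3. Blm, Brca1, Brip1, Eme1, Fanci, H2afx, Polh and Rad54b each lost the saline call in at least 1 of these. Exo1 and Mdc1 passed as lower and Polk as higher in saline under each of them. Without the 3 heart- and muscle-rich libraries saline hyperoxia kept replicate 3 alone, and without the 2 thymocyte-rich ones replicate 1 alone. Calls from these fits are therefore not given. Their saline log2 fold changes were, in that order, -0.98 and -1.22 for H2afx and 1.56 and 1.16 for Polk. Bard1 and Rad51ap1 each had -1.16 without the 3 heart- and muscle-rich libraries. The ATG count of 17 lower genes ranged from 12 to 17 when any 1 library was left out, and Blm, Brca1, Chek2, Fancd2 and Rad50 were the genes that lost the call. The averaged count ranged from 21 to 23.

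ATG was compared with saline within each oxygen condition, and hyperoxia effects were compared between the injections, to ask whether the drug changed these transcripts. No member passed in hyperoxia, in room air or in the interaction by edgeR, DESeq2 or limma-voom. Over all genes edgeR called 1 gene in hyperoxia (0.00634% of those tested), 0 in room air (0.00%) and 0 in the interaction (0.00%). An unadjusted p under 0.05 was found for 4 of the 37 members in hyperoxia (Rad50, Fancd2, Chek2 and H2afx), for 1 in room air (Ddb2) and for 1 in the interaction (H2afx). Of all 15761 tested genes 897 had such a p in hyperoxia, 949 in room air and 465 in the interaction.

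H2afx had the smallest of these p-values. Its level in ATG hyperoxia, 41.3 ± 6.87 CPM, overlapped that in saline hyperoxia, 61.1 ± 22 CPM (SD, n = 3 each), with a log2 fold change of -0.56 (SE 0.19, adjusted p = 0.718). Without saline hyperoxia 2 that value was -0.23 (adjusted p = 0.934). Rad54b, Rad50, Fancd2, Atm and Chek2 were lower in all ATG hyperoxia libraries than in any saline hyperoxia library, 5 of 37 genes against 5.54% of all tested genes, and 0 were higher without overlap, against 5.55%. Fancd2 had a log2 fold change of -0.61 (SE 0.27, adjusted p = 0.852), Chek2 of -0.56 (SE 0.22, adjusted p = 0.781), Rad54b of -0.51 (SE 0.27, adjusted p = 0.877), Rad50 of -0.22 (SE 0.09, adjusted p = 0.78) and Atm of -0.20 (SE 0.09, adjusted p = 0.852). In room air 2 of 37 genes, Palb2 and Polh, were lower in ATG than in saline without overlap, against 5.72% of all genes, and 0 were higher, against 6.26%. Palb2 had -0.59 (SE 0.29, adjusted p = 0.845) and Polh -0.12 (SE 0.12, adjusted p = 0.937).

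Of the 23 genes that fell in the average, 20 had a more negative hyperoxia log2 fold change in ATG than in saline. Their median difference was -0.22, against -0.0143 over all tested genes. The same difference was negative for all 15 proliferation genes, with a median of -0.4. Among the 23 genes that fell, the number was 15 without the 2 heart-rich libraries (median -0.07). It was 12 without the 3 heart- and muscle-rich ones (-0.01) and 14 without the 2 thymocyte-rich ones (-0.08). In these last fits saline hyperoxia kept replicate 3 alone and replicate 1 alone, in that order. For Chek1 the interaction was -0.84 (SE 0.46, adjusted p = 1.00), and for H2afx it was -0.67 (SE 0.27, adjusted p = 1.00). For Eme1 it ran the other way, at 1.01 (SE 0.71, adjusted p = 1.00). A difference between the injections was therefore not detectable for any of the 37 genes at this depth and number of samples. The 23 genes were measured in the same 12 libraries and are not independent observations. The share of all tested genes with a more negative value in ATG was not counted.

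A further 98 genes of the same pathways, listed by role beside the members, were counted in the same way. In the average 30 fell, 4 rose and 64 did not pass, with a median log2 fold change of -0.10, against 11.3% lower and 11.0% higher among all tested genes. After ATG 16 fell and 2 rose, against 6.25% and 5.41% of all tested genes, and after saline 17 fell and 2 rose, against 4.50% and 4.70%. The saline falls numbered 11 without saline hyperoxia 1, 7 without saline hyperoxia 3 and 6 without saline room air 3. By role the averaged falls were 7 of 20 further recombination genes, 6 of 15 for resection and joint molecules, 6 of 13 Fanconi genes, 2 of 12 end joining genes, 7 of 22 checkpoint genes and 2 of 16 for bypass and excision. Those named here are among the 2 with the smallest adjusted p in each role. Rpa2, which coats single-stranded DNA, had 12.4, 12.4 and 15.3 CPM in ATG hyperoxia lungs and 10.2, 16.4 and 10.4 in saline hyperoxia lungs, against 20.0, 19.4 and 18.6 in ATG room-air lungs and 22, 20.7 and 19.2 in saline room-air lungs. Every hyperoxia library was below every room-air library, and its average log2 fold change was -0.64 (SE 0.12, adjusted p = 0.00186).

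The joint molecule nuclease Gen1 fell by 1.38 (SE 0.17, adjusted p = 5.86e-05) and Rmi2, a cofactor of BLM, by 1.13 (SE 0.21, adjusted p = 0.00148) in the average. In the Fanconi group Usp1, which strips ubiquitin from the clamp, had -0.65 (SE 0.08, adjusted p = 6.92e-05) and Fancm, the fork translocase, -0.66 (SE 0.09, adjusted p = 0.00013). Polq, the polymerase of microhomology-mediated joining, fell by 1.42 (SE 0.27, adjusted p = 0.00166), and Parp1, the sensor of strand breaks, by 0.41 (SE 0.09, adjusted p = 0.00483). Both belong to repair of ends outside the Ku pathway. For the ATR activator Topbp1 the average was -0.68 (SE 0.08, adjusted p = 2.73e-05), and for Clspn, the claspin adaptor of CHEK1, -1.40 (SE 0.19, adjusted p = 9.68e-05). Pcna, the sliding clamp, fell by 0.63 (SE 0.06, adjusted p = 6.55e-06).

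The 4 further genes that rose were Ercc5, Rev1, Bccip and Rad23b, of which Rev1, Bccip and Rad23b were picked out after their values were seen. Ercc5, the XPG nuclease of excision repair, had 77.6, 63 and 84 CPM in ATG hyperoxia lungs and 69.6, 78.7 and 86.6 in saline hyperoxia lungs, against 46.6, 50.6 and 47.3 in ATG room-air lungs and 46.5, 42.8 and 47.5 in saline room-air lungs. All hyperoxia libraries were above all room-air libraries, and Ercc5 rose by 0.64 (SE 0.11, adjusted p = 0.00181) in ATG and by 0.78 (SE 0.11, adjusted p = 0.000698) in saline. Rev1, a bypass polymerase and scaffold for other bypass polymerases, had 33.3, 30.2 and 30.9 CPM in ATG hyperoxia lungs and 27.3, 30.1 and 32 in saline hyperoxia lungs, against 14.6, 19.6 and 23.8 in ATG room-air lungs and 22.3, 19.5 and 20.5 in saline room-air lungs. Its hyperoxia libraries also lay above its room-air libraries, and it rose by 0.70 (SE 0.15, adjusted p = 0.00704) in ATG and by 0.52 (SE 0.15, adjusted p = 0.0436) in saline. Bccip, a binding partner of BRCA2 and p21, had 0.34 (SE 0.10, adjusted p = 0.0277) in the average, and Rad23b, a partner of XPC, 0.16 (SE 0.06, adjusted p = 0.0491).

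Reads of 8 of the 37 genes are uncertain where exons overlap those of another gene. No source used here states whether the counting used strand. For Rad54b a strand setting would not separate the reads, since Fsbp lies on the same strand. More than 10% of the exon bases were shared with 1 other gene for Rad54l (15.4%, Lrrc41), Rad54b (35.8%, Fsbp), Fanca (10.5%, Zfp276), Fancc (16.4%), Fanci (16.0%, Polg), Trp53bp1 (15.0%, Tubgcp4), H2afx (10.2%, a microRNA model) and Ddb2 (23.8%, Acp2). Fsbp was at 0.12 to 0.50 CPM in every library, under the 2.02 to 8.54 CPM of Rad54b. The other overlapping genes read were more abundant than the members they overlap, with Lrrc41 at 51.8 to 77.3 CPM against 2.35 to 9.15 CPM for Rad54l, Polg at 23 to 31.7 CPM against 3.77 to 10.0 CPM for Fanci, and Zfp276 at 8.68 to 17.1 CPM against 1.38 to 4.65 CPM for Fanca. Hyperoxia log2 fold changes in the average were 0.15 (SE 0.08, adjusted p = 0.182) for Lrrc41, 0.09 (SE 0.09, adjusted p = 0.493) for Polg and 0.14 (SE 0.14, adjusted p = 0.521) for Zfp276, so none of the 3 passed. Acp2 averaged 83.1 CPM in ATG hyperoxia lungs and 82 in saline hyperoxia lungs, against 82 in ATG room-air lungs and 89.8 in saline room-air lungs, above Ddb2 in each group. Exons of 21 genes overlapped no other gene.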

How the data were processed

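RNA-seq libraries of 12 lung samples were made from amplified cDNA (NuGEN Ovation V2, Nextera XT) and sequenced as paired 75-base reads, per the labels' protocols. What the authors deposited is a table of raw counts per gene, not normalized and with no samples pooled. Per the submitters' processing notes, Bowtie2, Cufflinks, DESeq and the build mm10 were used, with no version named. Which tool counted the reads, with which strand setting and annotation, is not given in the sources used here. The labels give no batch. Amplified reads are not independent molecules.

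Columns were matched to samples by name. Replicates were compared first, and no pair agreed within sampling noise (chi-square over its degrees of freedom 6.83 to 41.9). Genes were kept by filterByExpr (minimum count 10, minimum total 15), scaled by TMM and fitted over 12 samples with 8 residual degrees of freedom by edgeR's quasi-likelihood test. P-values are two-sided with Benjamini-Hochberg adjustment over 15761 genes, and SE is the log2 fold change divided by the square root of its F statistic. Levels are CPM with TMM scaling. The median biological coefficient of variation was 15%. On simulated counts for saline hyperoxia against room air (15572 genes, 200 changed) the test recovered 60.6% of log2 changes of 1 and 11.9% of those of 0.5, and 11.3% of its calls were false. The simulation changed genes in saline hyperoxia alone, and far fewer than the 1449 called in the data. Its shares of recovered and false calls therefore need not hold for the real calls. Overlaps come from GENCODE M21 exons, positions and promoters from RefSeq GRCm38.p6, where all 37 genes matched. Fits used edgeR 4.0.16 in R 4.3.3, and the alternatives limma 3.58.1 and DESeq2 1.42.0.

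Members and lists were chosen with earlier results of these data known. Values per library are given for the 20 called members with the largest averaged change, other members by group means, and further pathway genes by counts and the 2 smallest adjusted p per role; 98 of 99 further genes were found, and 1 gene that this rule names is not reported here. Alternatives were DESeq2, limma-voom, RLE scaling, no filter, a replicate block, the 6 samples compared, leaving out each library, and leaving out heart-, muscle- or thymocyte-rich libraries, the last chosen after seeing the data.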

Additional observations from a re-analysis of the deposited data

How the results depend on the processing

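No member changed direction while called under any alternative. The 24 averaged calls (23 lower, 1 higher) were all kept under DESeq2, limma-voom, RLE scaling, no filter and the replicate block, and 21 to 23 members were lower with any 1 library left out. Leaving out 1 library gave 4 to 15 lower members in saline, 12 to 17 in ATG, 6 to 19 lower and 1 to 2 higher further pathway genes in saline, and 2 to 4 higher in the average. Over all genes it gave 740 to 1704 calls in saline (1449 with all libraries), 1150 to 2045 in ATG (1838), 0 to 2 for ATG against saline in hyperoxia and 0 to 1 in room air. Without the 3 heart- and muscle-rich libraries saline had 4 lower members, 6 lower and 1 higher further genes and 781 calls over all genes. Without the 2 thymocyte-rich libraries it had 5 lower members, 4 lower and 1 higher further genes and 588 calls. Further genes higher in saline were 1, against 2, also without the 2 heart-rich libraries and with the replicate block. In the average they were 2, against 4, without the 3 heart- and muscle-rich or the 2 thymocyte-rich libraries. ATG against saline in hyperoxia called 11 genes by DESeq2, 3 by limma-voom, 3 with no filter, 0 without the 2 heart-rich, 0 without the 3 heart- and muscle-rich and 4 without the 2 thymocyte-rich libraries. In room air DESeq2 called 16 genes and edgeR 0, and the interaction called 4 without the thymocyte-rich libraries. The cause was not tested, though leaving out libraries leaves fewer samples. By DESeq2, Brca2, Rad54l, Xrcc3 and Fanca also passed in saline and Brip1 did not (adjusted p = 0.0551), and Fancg passed in ATG by DESeq2 (0.0416) and limma-voom (0.048). With the replicate block Fanci did not pass in saline (adjusted p = 0.0581), and the block changed no other member's call. Replicate numbers showed no clear pairing of the samples. Of 18 same-number pairs 4 had a correlation of deviations over 0.1 (range -0.201 to 0.318), the highest between saline hyperoxia 2 and ATG hyperoxia 2. Of 12 libraries 5 correlated best with their own number. With 3 samples per group this check cannot exclude a shared litter or day. The lowest counts among the members were 14 for Eme1 and 25 for Fanca.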

Other observations

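Per kilobase of exon, the mean levels of the 37 genes in saline room air ran from 0.491 CPM per kb for Fanca to 75.2 CPM per kb for H2afx, with Rad50 at 25.1 and Mdc1 at 18.2 CPM per kb. The most abundant members per length thus included genes that fell by large and by small amounts in hyperoxia. ATG room air 2 was the lowest of the 6 room-air libraries for 16 of the 23 genes that fell in hyperoxia, among them Brca1, Bard1, Brip1, Eme1 and Chek1, and its summed proliferation genes were 1368 CPM, against 1664 to 2522 CPM in the other 5.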
